A study of Mus musculus with 8 samples.

Results

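The colony-stimulating factor genes examined here are the CSF1 receptor gene *Csf1r*, its ligands *Csf1* and *Il34*, and the related receptor genes *Csf2ra*, *Csf2rb*, *Csf2rb2* and *Csf3r*. They were chosen by name and are 7 of the 20308 genes in the count files. All 7 passed edgeR's filter on low counts, which kept 13407 genes. RNA was sequenced from CD11b+ cells that had been pulled down with magnetic beads from the right brain hemisphere, after PBS perfusion and removal of myelin on Percoll. The mice were p14 or p15 and C57Bl/6 X CD1 F1. CSF1 OE mice express the secreted form of CSF1 from a TRE/tTA transgene in a subset of GFAP+ cells, and control mice are labelled only as the control for CSF1 over-expression, so that their transgenes, if any, are not given in the sources used here. There were 4 mice in each genotype, with 1 library per mouse, and mice are given below by their animal numbers (1827, 1872, 1874 and 1934 in control, 1931, 1932, 1936 and 2019 in CSF1 OE).

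CSF1 and IL-34 are secreted proteins that bind the same receptor tyrosine kinase, CSF1R, on microglia and other macrophages, and these cells depend on that receptor for their survival and proliferation. In the brain, IL-34 is made mainly by neurons and CSF1 mainly by glia. *Csf2ra* and *Csf2rb* encode the ligand-binding and the shared signalling chain of the GM-CSF receptor, *Csf2rb2* encodes a mouse paralog of the shared chain that serves IL-3, and *Csf3r* encodes the G-CSF receptor, which is best known from neutrophils. These receptor chains have no kinase of their own and signal through JAK and STAT proteins, whereas CSF1R phosphorylates its targets itself. CD11b is carried by microglia, border macrophages, monocytes and neutrophils, but not by astrocytes. RNA of cells that express the transgene should thus be present only as far as such cells or their fragments came through the pull-down.

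The *Csf1* gene lies on chromosome 3 from 107741048 to 107760469 on the minus strand (GENCODE M21 on GRCm38, as are all positions here) and has 7 annotated transcripts, of which 6 are protein-coding. Alternative splicing decides whether CSF1 is secreted or stays at the cell surface. The full-length message, Csf1-201 with 1656 coding bases, holds 885 coding bases that the short message, Csf1-202 with 771 coding bases, lacks, and this segment encodes the sites at which the secreted form is released. The extra segment covers coding positions 545 to 1429 and lies within an exon at chr3:107748285-107749169. The bases around its start and its end and around the splice junction of the short message are shown because they are what sets the messages apart, with the bases of the extra segment in capitals.
Csf1-201, start of the extra segment: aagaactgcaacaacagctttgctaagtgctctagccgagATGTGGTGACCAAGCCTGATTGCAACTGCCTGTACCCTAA
Csf1-201, end of the extra segment: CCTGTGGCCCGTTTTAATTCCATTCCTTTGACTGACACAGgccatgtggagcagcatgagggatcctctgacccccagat
Csf1-202, junction of the short message: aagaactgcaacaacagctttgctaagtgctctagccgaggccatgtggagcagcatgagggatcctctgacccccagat
The sequences run 5′ to 3′ along the message, lie at chr3:107749130-107750350, chr3:107748245-107748324 and chr3:107748245-107750350 on the minus strand, and the first and the third of these spans include an intron. The deposited values are 1 count per gene, so that these messages were not counted apart, and reads of a *Csf1* transgene that match the mouse gene cannot be told apart from those of the endogenous gene.

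The *Csf2rb* and *Csf2rb2* genes are neighbours on chromosome 15, at 78325752 to 78353847 on the plus strand and 78282507 to 78305721 on the minus strand. Their coding sequences were identical at 95.2% of 2628 aligned bases (2503 bases). A read of the length used in the study would match both genes exactly at 238 of the 4640 positions of the *Csf2rb* transcript (5.1%) and at 238 of the 4616 positions of *Csf2rb2* (5.2%). The 100 aligned bases with the most differences, 17, are shown with the differing bases in capitals, followed by the longest run, 242 bases, in which the messages are the same.
Csf2rb, chr15:78338903-78340456 (+): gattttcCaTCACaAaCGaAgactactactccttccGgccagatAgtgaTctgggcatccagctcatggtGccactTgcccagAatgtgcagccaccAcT
Csf2rb2, chr15:78292853-78294428 (-): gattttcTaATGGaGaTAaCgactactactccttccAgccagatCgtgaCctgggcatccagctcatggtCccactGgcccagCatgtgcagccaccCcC
Shared run, chr15:78348577-78348818 (+) in Csf2rb and chr15:78284630-78284871 (-) in Csf2rb2: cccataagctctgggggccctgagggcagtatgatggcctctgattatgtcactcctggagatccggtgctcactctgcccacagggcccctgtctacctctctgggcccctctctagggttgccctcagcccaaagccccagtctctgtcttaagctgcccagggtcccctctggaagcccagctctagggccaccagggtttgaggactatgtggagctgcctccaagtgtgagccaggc
RSEM, which made the counts, divides a read that fits both genes between them, so that the counts of this pair are uncertain as far as they rest on such reads.

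Total expected counts ranged from 12053280 to 15475488 per library. Expression is given in CPM, the expected count relative to the library's TMM-scaled total, with group means ± SD over 4 mice. Log2 fold changes compare CSF1 OE with control mice and come with a standard error (SE) and a Benjamini-Hochberg adjusted p. The p is that of edgeR's quasi-likelihood test, adjusted over all 13407 genes. The SE was derived from that test, as the absolute log2 fold change divided by the square root of its F. The 95% intervals were built from this SE with a t quantile. A gene was called where its adjusted p was under 0.05 and its fold was either under 0.7 or over 1.43. Exact permutation tests of the mean log2 CPM are two-sided over all 70 assignments of 4 mice against 4 and allow no p below 0.0286. The labels do not say that the libraries were prepared in batches, and animal numbers 1931 to 1936 hold 1 control and 3 CSF1 OE mice while the other numbers hold 3 control and 1 CSF1 OE mice, so that values within these 2 sets of mice are given as well. The labels give the numbers no meaning, and mouse 2019, the single CSF1 OE mouse of the second set, is numbered far from its 3 control mice.

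None of the 7 genes was called, where 0.44% of all genes tested were (59 of 13407, 0.388% higher and 0.0522% lower in CSF1 OE mice). With DESeq2 3.17% of the genes were called, and with a term for these sets 9.5%, again with 0 of the 7 among them. Only *Csf2ra* and *Csf2rb* had an unadjusted p under 0.05, both with the higher level in CSF1 OE mice, which is 2 of 7 where 10.1% of all genes were higher at that p and 16.5% passed it in either direction. In none of the 7 did the genotypes separate without overlap, where they did in 10.3% of all genes (6.85% with CSF1 OE mice higher). The median log2 fold change of the 7 was 0.18, with 6 above 0 and 1 below, where 44.8% of all genes were above 0 and their median was -0.03.

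**Figure D1:**
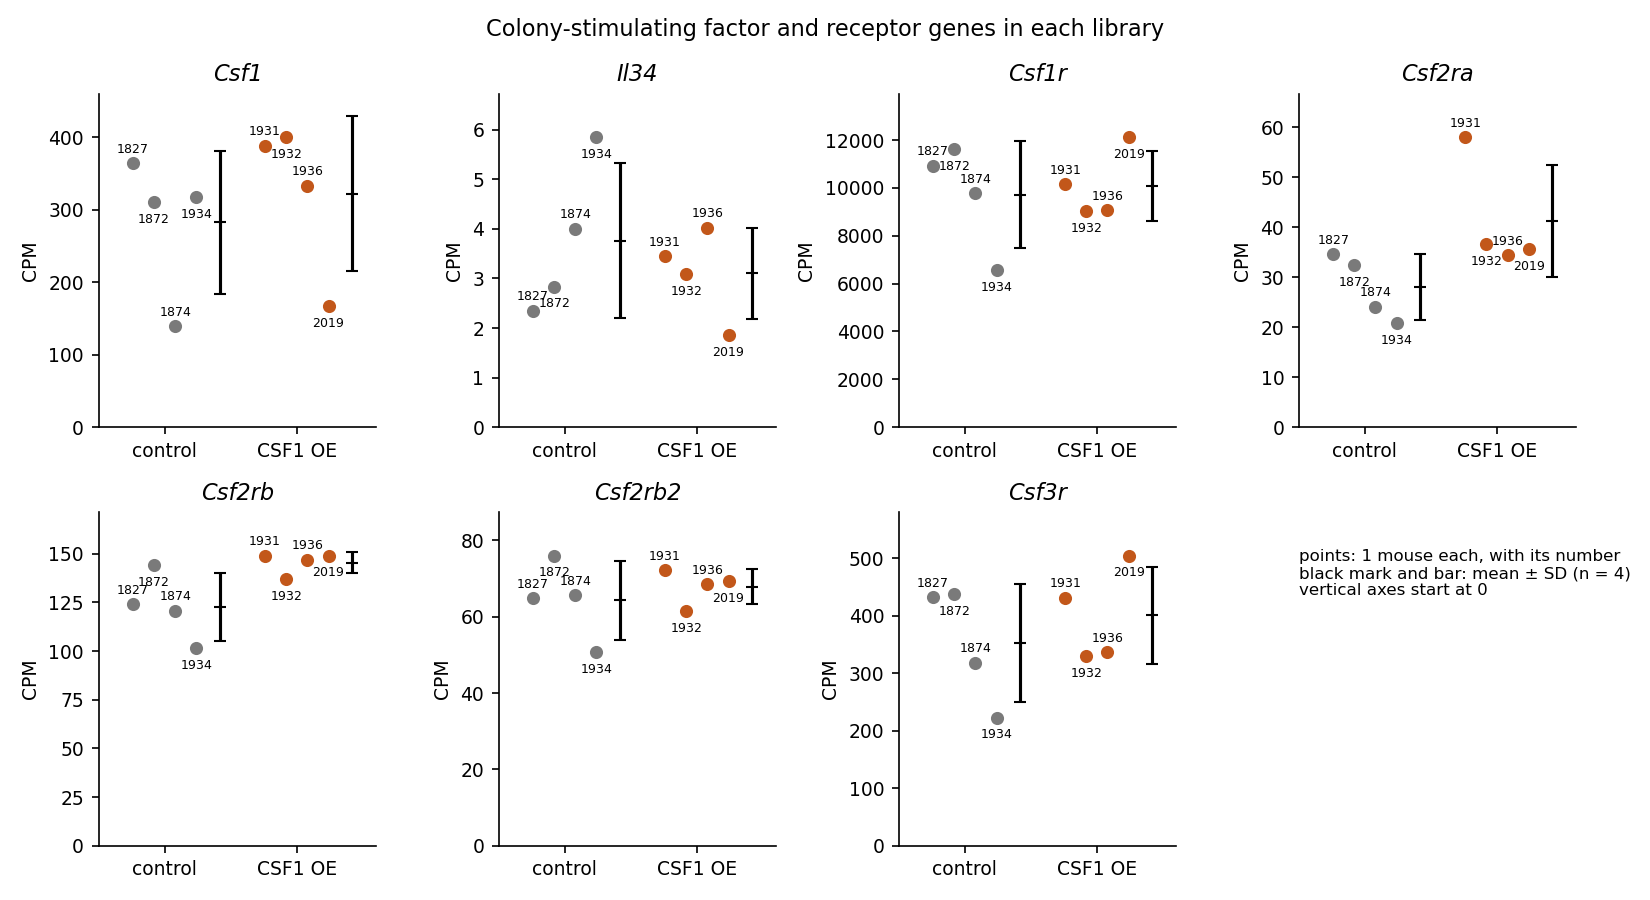
CPM (vertical axis, from 0) of each of the 7 genes in control (grey) and CSF1 OE mice (orange), with 1 point per mouse marked by its animal number and the group mean ± SD (n = 4) beside it. The genotypes overlap in every panel, *Csf1* is lowest in control mouse 1874 and CSF1 OE mouse 2019, and *Csf2ra* is highest in CSF1 OE mouse 1931 at 58.1 CPM.

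The first question was whether the *Csf1* transcript of the CD11b+ cells was higher in the mice that carry the CSF1 transgene. *Csf1* was at 364, 310.0, 139 and 317 CPM in control mice 1827, 1872, 1874 and 1934. It was at 388, 400.1, 333 and 167 CPM in CSF1 OE mice 1931, 1932, 1936 and 2019. In both genotypes the upper 3 mice lay between 310.0 and 400.1 CPM, 2 CSF1 OE mice were above every control mouse, and 1 mouse of each genotype was far below the rest.

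The means were 282 ± 98.7 CPM for control and 322 ± 107 CPM for CSF1 OE mice (SD, n = 4 each), and the log2 fold change was 0.19 ± 0.33 (SE; adjusted p = 0.796 by edgeR; exact permutation test, p = 0.486). The difference was within the spread between mice. Its 95% interval ran from a fold of 0.675 to a fold of 1.93, so that folds between these bounds, a fall as well as a rise, lie within the error of the estimate. *Csf1* had from 1836 to 5445 counts in a library. Without control mouse 1874 the log2 fold change was -0.03, and without CSF1 OE mouse 2019 it was 0.41.

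Among mice 1931 to 1936 the single control mouse had 317 CPM of *Csf1* and the 3 CSF1 OE mice a mean of 374 CPM. Among the other numbers the 3 control mice had a mean of 271 CPM and the single CSF1 OE mouse 167 CPM. The direction thus differed between the sets, and a fit with a term for the set gave a log2 fold change of -0.23 (adjusted p = 0.689 by edgeR).

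The transgene is driven in GFAP+ cells, so astrocyte RNA was followed beside *Csf1*. The summed level of 12 astrocyte markers was 439, 542, 732 and 836 CPM in control mice 1827, 1872, 1874 and 1934, and 483, 512, 838 and 356 CPM in CSF1 OE mice 1931, 1932, 1936 and 2019. Mouse 2019, with little *Csf1* for its genotype, had the lowest sum, but control mouse 1874, with the least *Csf1* of all, had the third highest. With the log2 of this sum as a covariate the log2 fold change of *Csf1* was 0.19, the same to 2 decimals as without it.

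Of the 12 astrocyte markers 0 were called, 3 had a higher and 9 a lower estimate in CSF1 OE mice, and their median log2 fold change was -0.28. *Gfap* encodes the intermediate filament of astrocytes, and its product marks the cells in which the transgene is active. It was the only 1 of the 12 with an unadjusted p under 0.05. Of all genes, 10.1% were higher at that p and 16.5% passed it in either direction. *Gfap* was at 13.1, 11.3, 17.1 and 26.4 CPM in control mice and at 31.3, 26.0, 49.9 and 18.1 CPM in CSF1 OE mice, in the order given above. All but 1 of the CSF1 OE mice were near or above the highest control mouse, with a log2 fold change of 0.88 ± 0.35 (SE, unadjusted p = 0.0308, adjusted p = 0.253 by edgeR). It was 1.13 with the astrocyte covariate (adjusted p = 0.0326), which is computed from a sum that includes *Gfap*, and 0.42 (adjusted p = 0.266) with a term for the sets of animal numbers. *Gjb6*, a gap junction gene of astrocytes, had the lowest estimate, -0.61 (adjusted p = 0.395 by edgeR).

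Per kilobase of merged exons, *Csf1* in control mice averaged 53.5 CPM (26.3 to 69.0 over the mice), while the highest of the 12 astrocyte markers, the glutamate transporter gene *Slc1a3*, averaged 21.5 CPM (17.2 to 26.8) and *Gfap* 4.02 CPM. In CSF1 OE mice the means per kilobase were 61.0 CPM for *Csf1*, 19.8 CPM for *Slc1a3* and 7.43 CPM for *Gfap*. In both genotypes the mean of *Csf1* per kilobase was above that of every astrocyte marker listed, although its lowest control value lay within the range of *Slc1a3*. What share of it came from astrocytes was not tested. In bulk RNA, fewer cells of a type and less RNA per cell cannot be told apart.

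**Figure D2:**
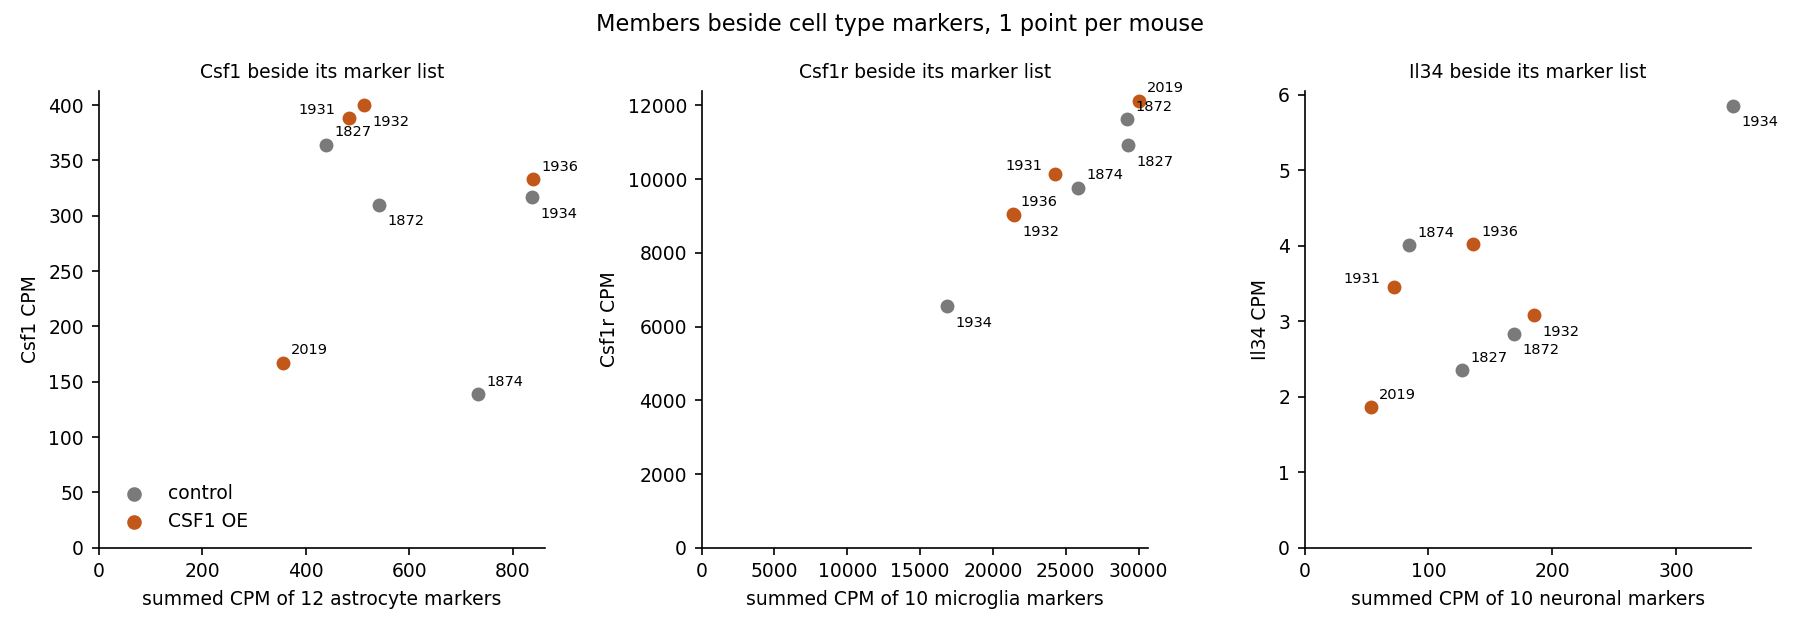
CPM of *Csf1*, *Csf1r* and *Il34* (vertical axes) against the summed CPM of astrocyte, microglia and neuron markers (horizontal axes), with 1 point per mouse in control (grey) and CSF1 OE (orange). *Csf1* shows no order with the astrocyte sum, *Csf1r* is lowest where the microglia sum is lowest (control mouse 1934), and *Il34* is highest where the neuron sum is highest, in the same mouse.

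*Il34*, the other ligand of CSF1R, lies on chromosome 8 from 110741829 to 110805924 and was the least abundant of the 7 genes, with 21 to 99 counts in a library. It was at 2.35, 2.84, 4.01 and 5.85 CPM in control mice and at 3.45, 3.09, 4.02 and 1.86 CPM in CSF1 OE mice, in the order given above. The genotypes overlapped, with the extremes in control mouse 1934 and CSF1 OE mouse 2019. The log2 fold change was -0.28 ± 0.35 (SE, 95% interval -1.06 to 0.51, adjusted p = 0.719 by edgeR; exact permutation test, p = 0.543), and without control mouse 1934 it was 0.04. Within both sets of animal numbers the CSF1 OE values lay below the control values, at 3.52 against 5.85 CPM and at 1.86 against 3.06 CPM.

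The neuron markers shared the extremes of *Il34*, but not the order of the other mice. The summed level of the 10 markers was 127, 169, 84.1 and 346 CPM in control mice and 72.1, 185, 136 and 53.5 CPM in CSF1 OE mice, highest in mouse 1934 and lowest in mouse 2019, as *Il34* was. Of these markers 0 were called, 1 had a higher and 9 a lower estimate in CSF1 OE mice. *Slc17a7*, the vesicular glutamate transporter gene of excitatory neurons, had the lowest estimate, -1.30 (adjusted p = 0.430), and *Gad1*, which makes GABA in inhibitory neurons, the highest, 0.16 (adjusted p = 0.817 by edgeR). The astrocyte sum given above was also lowest in mouse 2019, and in mouse 1934 it was close to its highest value. With that sum as a covariate the log2 fold change of *Il34* was 0.008 (adjusted p = 0.991 by edgeR). Other alternatives moved it the other way, to as low as -0.72. The lowest adjusted p of *Il34* under any alternative (edgeR, DESeq2 or limma) was 0.0897. The part of neuronal RNA in the level of *Il34* was not tested.

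*Csf1r*, on chromosome 18 from 61100598 to 61132149, had the highest CPM of all 13407 genes tested and ranked 11 of the 12792 genes that could be ranked per kilobase. Its levels were 10928, 11623, 9774 and 6563 CPM in control mice and 10147, 9031, 9057 and 12128 CPM in CSF1 OE mice. The highest CSF1 OE mouse, 2019, was above every control mouse, and the lowest value belonged to control mouse 1934. The means were 9722 ± 2240 CPM and 10091 ± 1454 CPM (SD, n = 4 each), and the log2 fold change was 0.05 ± 0.21 (SE, 95% interval -0.42 to 0.53, adjusted p = 0.914 by edgeR; exact permutation test, p = 0.800). The difference was smaller than the spread between mice. Among mice 1931 to 1936 the levels were 9412 CPM in CSF1 OE against 6563 CPM in control mice, and among the other numbers 12128 against 10775 CPM.

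Mouse 1934 stood apart in its cell type markers as well. Its summed level of 10 microglia markers was 16845 CPM, where the other 7 libraries had from 21350 to 30012 CPM, and its sum of 6 oligodendrocyte markers, 5924 CPM, was the highest. Without this mouse the log2 fold change of *Csf1r* was -0.08 (adjusted p = 0.862 by edgeR). The microglia markers were all measured, with *Itgam*, which encodes CD11b itself, at 1793 to 3117 CPM, so the libraries hold the cell type the pull-down aimed at.

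**Figure D3:**
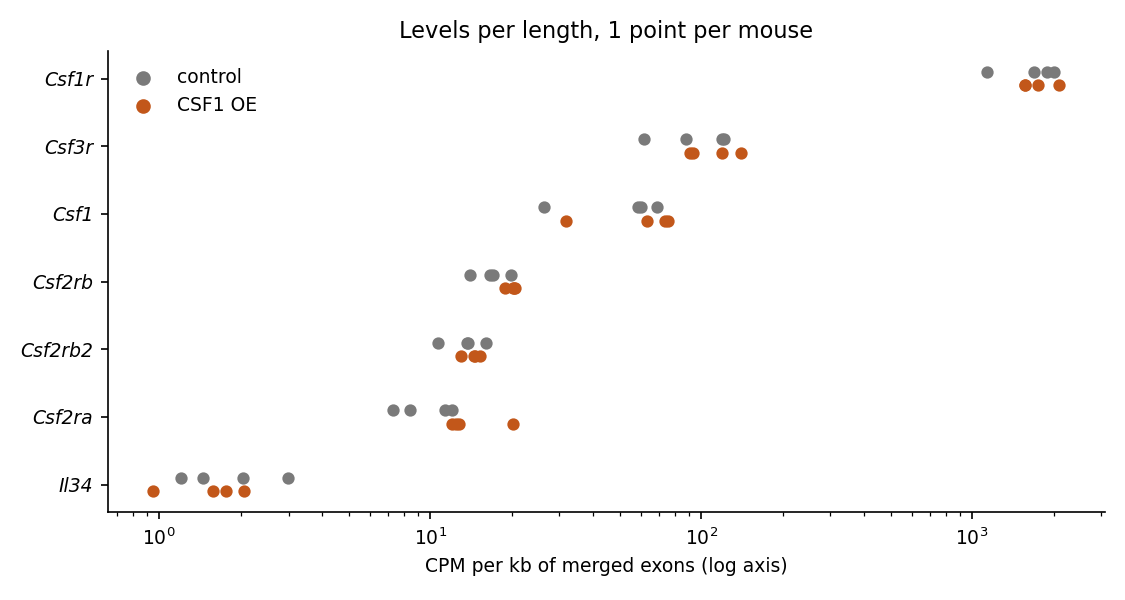
CPM per kilobase of merged exons (horizontal log axis) of the 7 genes in each mouse, with control in grey and CSF1 OE in orange, ordered by the mean over the 8 libraries. *Csf1r* lies above and *Il34* below all others in every mouse, and *Csf2rb*, *Csf2rb2* and *Csf2ra* overlap.

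Per kilobase of merged exons and over all 8 libraries, *Csf1r* averaged 1716 CPM, followed by *Csf3r* at 104 CPM, *Csf1* at 57.2 CPM, *Csf2rb* at 18.4 CPM, *Csf2rb2* at 13.9 CPM, *Csf2ra* at 12.1 CPM and *Il34* at 1.75 CPM. The ranges of *Csf3r* (61.7 to 140 CPM) and *Csf1* (26.3 to 75.8 CPM) overlapped. Those of *Csf2rb* (13.96 to 20.5 CPM), *Csf2rb2* (10.7 to 16.0 CPM) and *Csf2ra* (7.27 to 20.2 CPM) overlapped too, so that their order was not set beyond the spread between libraries. With the length of the longest coding transcript in place of merged exons, *Csf2ra* moved to 18.7 CPM, above *Csf2rb2* at 13.9 CPM.

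*Csf2ra*, the ligand-binding chain of the GM-CSF receptor, lies on chromosome 19 from 61223957 to 61228429 and had the highest estimate of the 7. It was at 34.7, 32.4, 24.1 and 20.9 CPM in control mice and at 58.1, 36.7, 34.5 and 35.7 CPM in CSF1 OE mice. All but 1 of the CSF1 OE mice were above every control mouse, and mouse 1931 was far above the other CSF1 OE mice. The means were 28.01 ± 6.57 CPM and 41.2 ± 11.3 CPM (SD, n = 4 each). The log2 fold change was 0.56 ± 0.22 (SE, 95% interval 0.07 to 1.05), which passed an unadjusted threshold (p = 0.0307) but not the adjusted one (adjusted p = 0.253 by edgeR; exact permutation test, p = 0.0571). Without mouse 1931 it was 0.35 (unadjusted p = 0.0937, adjusted p = 0.523 by edgeR). Within the sets of animal numbers, CSF1 OE mice had 43.1 against 20.9 CPM and 35.7 against 30.4 CPM.

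*Csf2rb*, the shared signalling chain, was at 124, 144, 121 and 102 CPM in control mice and at 149, 137, 147 and 149 CPM in CSF1 OE mice. The CSF1 OE mice lay close together, and 3 of them were above every control mouse. The means were 123 ± 17.4 CPM and 145 ± 5.65 CPM (SD, n = 4 each), and the log2 fold change was 0.25 ± 0.11 (SE, 95% interval 0.01 to 0.48, unadjusted p = 0.0437, adjusted p = 0.287 by edgeR; exact permutation test, p = 0.0571). The microglia marker sum had ranges of 16845 to 29254 CPM in control and 21350 to 30012 CPM in CSF1 OE mice, and both *Csf2ra* and *Csf2rb* were lowest in mouse 1934, where that sum was lowest. Without mouse 1934 the log2 fold changes were 0.45 for *Csf2ra* (adjusted p = 0.364) and 0.18 for *Csf2rb* (adjusted p = 0.391 by edgeR).

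*Csf2rb2* was at 64.8, 76.0, 65.6 and 50.8 CPM in control mice and at 72.2, 61.6, 68.5 and 69.4 CPM in CSF1 OE mice. The CSF1 OE values lay inside the range of the control values, with a log2 fold change of 0.08 ± 0.12 (SE; adjusted p = 0.763 by edgeR; exact permutation test, p = 0.571). Since the pair shares reads, as the sequences above show, their sum was fitted as 1 gene. The sum had a log2 fold change of 0.19 ± 0.11 (SE, 95% interval -0.06 to 0.44, adjusted p = 0.424 by edgeR), and the unadjusted p of the pair by edgeR was 0.120.

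The ratio of *Csf2rb* to *Csf2rb2* varied less than either gene. It was 1.92, 1.89, 1.84 and 2.0 in control mice and 2.06, 2.23, 2.14 and 2.15 in CSF1 OE mice. Every CSF1 OE mouse was above every control mouse. This ratio was picked out after its values had been seen and is given with no test. The way in which RSEM divided shared reads enters it. In each gene alone the genotypes overlapped. Among all single genes tested, 10.3% did not overlap, and that share was not computed for ratios of genes.

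**Figure D4:**
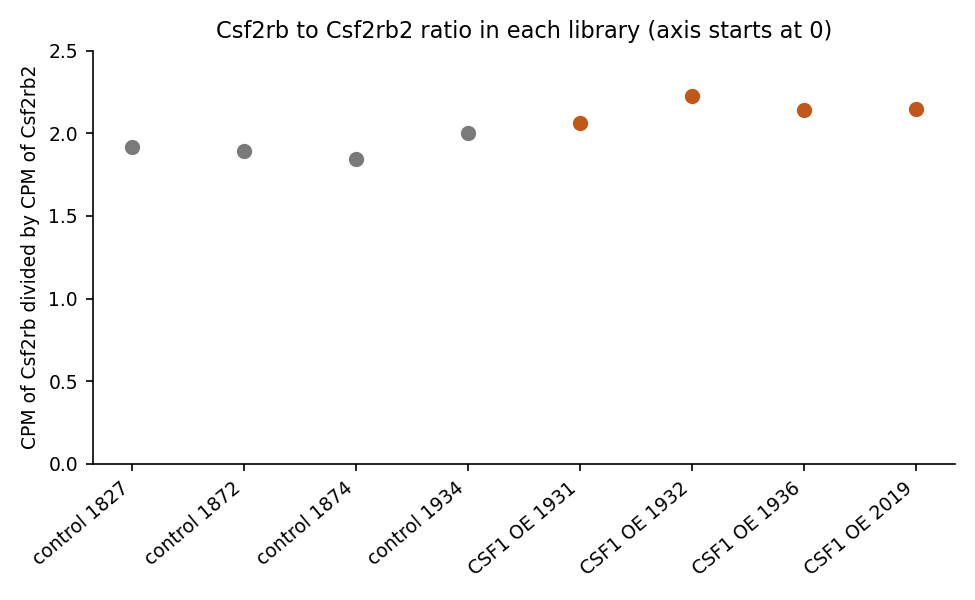
CPM of *Csf2rb* divided by CPM of *Csf2rb2* (vertical axis, from 0) in each of the 8 libraries, control in grey and CSF1 OE in orange. Control mice range from 1.84 to 2.0 and CSF1 OE mice from 2.06 to 2.23.

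*Csf3r*, on chromosome 4 from 126024550 to 126044440, was at 432, 438, 319 and 223 CPM in control mice and at 432, 330, 336 and 505 CPM in CSF1 OE mice. The genotypes overlapped, with the lowest value again in mouse 1934 and the highest in mouse 2019. The log2 fold change was 0.18 ± 0.23 (SE; adjusted p = 0.719 by edgeR; exact permutation test, p = 0.457). CSF1 OE mice were above control mice in both sets of animal numbers, with 366 against 223 CPM and 505 against 396 CPM.

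The receptor is known from neutrophils, whose granule and chemokine receptor genes were followed beside it. The summed level of the 9 neutrophil markers measured was 62.9, 157, 113 and 85.8 CPM in control mice and 32.4, 83.8, 46.2 and 265 CPM in CSF1 OE mice. It was highest in mouse 2019, as *Csf3r* was, but lowest in mouse 1931, where *Csf3r* was at 432 CPM. *S100a8*, a calcium-binding protein gene of neutrophils, had the highest estimate of the list at 0.36 (adjusted p = 0.832), which was -1.04 without mouse 2019, and *Mmp9*, a gelatinase gene, the lowest at -0.65 (adjusted p = 0.417 by edgeR). Of the neutrophil markers 0 were called.

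Across the 8 libraries, the log2 CPM of *Csf3r* followed that of *Csf1r* (Pearson r = 0.960), and *Il34* ran opposite to both, with r = -0.889 against *Csf1r* and r = -0.904 against *Csf3r*. *Csf1* followed neither receptor (r = -0.264 and -0.091). The libraries differed in their make-up of cell types, as the marker sums show, and all 8 points enter every pair of genes, so these values are descriptions. The genes whose log2 CPM was most like that of *Csf1* were *Bend3* (r = 0.976), *Elmsan1*, *Ap2a1*, *Pebp1* and *Sars2*. For *Csf1r* they were *Fmnl1* (r = 0.994), *Nucb1*, *Tmco1*, *Blnk* and *Lrwd1*, and for *Csf2rb* they were *Nupl1* (r = 0.978), *BC026585*, *Pigu*, *Xrcc6* and *Tns4*. Each set was picked as the highest of 13407 tested genes over 8 libraries. Its r values are raised by that selection and were not tested.

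**Figure D5:**
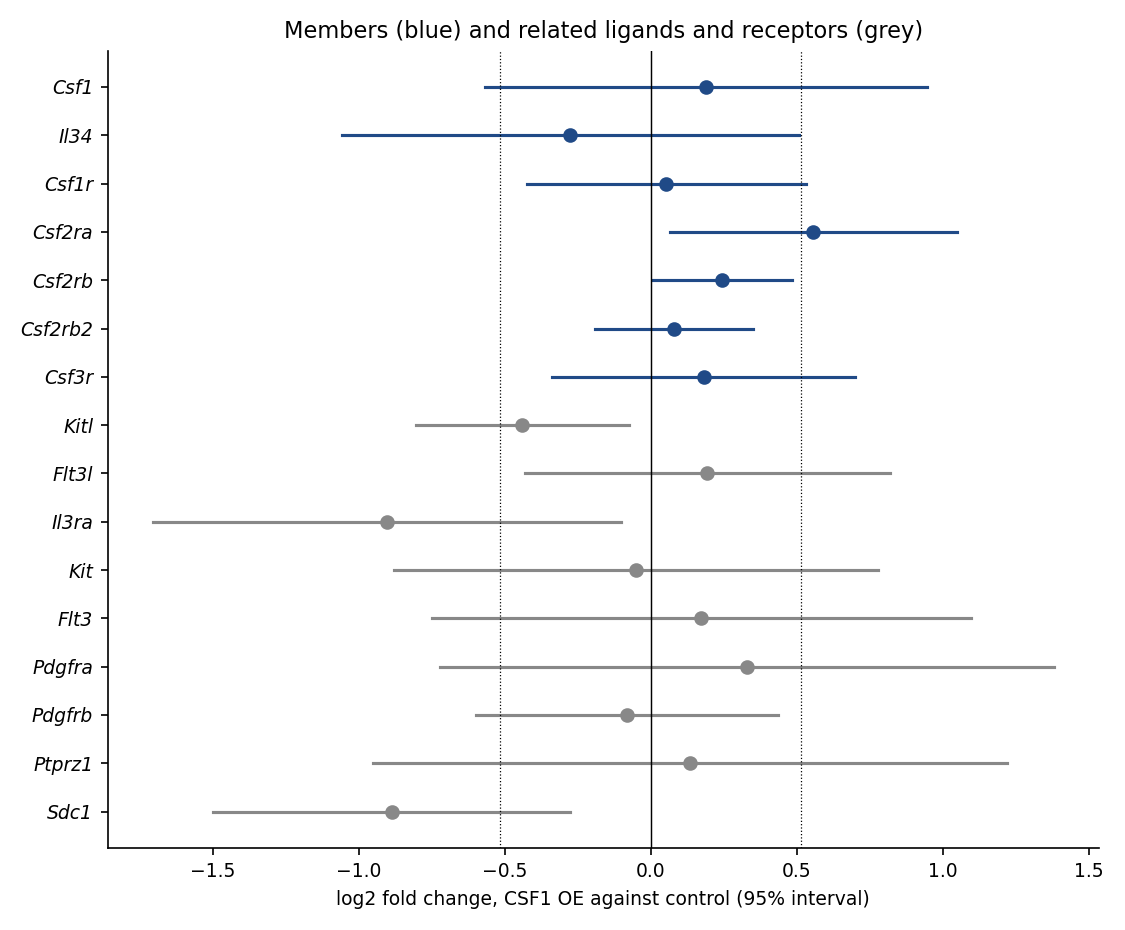
Log2 fold change of CSF1 OE against control with its 95% interval (horizontal axis) for the 7 genes (blue) and for the related ligand and receptor genes that were tested (grey). Dotted lines mark the fold thresholds of 0.7 and 1.43, and *Csf2ra*, *Csf2rb*, *Kitl*, *Il3ra* and *Sdc1* have intervals that leave out 0, none of them at an adjusted p under 0.05.

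The ligands of the related receptors were close to absent. *Csf2*, which encodes GM-CSF, had at most 4 counts in a library, *Csf3*, which encodes G-CSF, and *Il5* had at most 2, and *Il3* had 0 in all 8 libraries, which allows up to 0.177 to 0.266 CPM (3 counts) per library. These 4 genes were too low to test. Of the ligands of the related kinase receptors KIT and FLT3, *Kitl* was at 38.7, 42.9, 57.2 and 58.2 CPM in control and 43.3, 36.1, 35.5 and 30.4 CPM in CSF1 OE mice, with a log2 fold change of -0.44 ± 0.16 (SE, unadjusted p = 0.0234, adjusted p = 0.228 by edgeR). *Flt3l* was at 1.24 to 2.21 CPM in control and 1.56 to 2.20 CPM in CSF1 OE mice (log2 fold change 0.19, adjusted p = 0.749 by edgeR).

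Of 8 further receptors, 7 were tested, 0 were called, and 2 had an unadjusted p under 0.05, both lower in CSF1 OE mice, where 6.44% of all genes were. *Sdc1*, a cell surface heparan sulphate proteoglycan that can bind IL-34, was at 5.58, 11.3, 12.02 and 8.75 CPM in control and 4.93, 5.22, 6.37 and 3.72 CPM in CSF1 OE mice (log2 fold change -0.89, SE 0.27, unadjusted p = 0.00955, adjusted p = 0.163 by edgeR). *Il3ra*, the ligand-binding chain that pairs with the products of *Csf2rb* and *Csf2rb2*, was at 8.94, 10.2, 7.71 and 3.67 CPM in control and 6.00, 2.57, 4.09 and 3.63 CPM in CSF1 OE mice (log2 fold change -0.90, SE 0.36, unadjusted p = 0.0315, adjusted p = 0.255 by edgeR). The genotypes overlapped in both genes. *Il5ra*, the chain that binds IL-5, had at most 2 counts and was not tested.

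The other receptors differed by less than the spread between mice. The log2 fold change was 0.14 for *Ptprz1*, a phosphatase that also binds IL-34. Among the receptor kinases closest to CSF1R it was -0.05 for *Kit*, 0.17 for *Flt3*, 0.33 for *Pdgfra* and -0.08 for *Pdgfrb*. *Pdgfra* and *Ptprz1* are also genes of oligodendrocyte precursors, and both were highest in mouse 1936 at 52.5 and 141 CPM, where the summed level of 5 precursor markers, of which *Pdgfra* is 1, was highest too at 286 CPM. The part of those cells was not tested.

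Of 24 genes of the signalling path from CSF1R, including its adaptors, SRC-family kinases, phosphatases and the RAS and PI3K branches, all were tested and 0 were called. Their median log2 fold change was 0.10, with 15 above 0 and 9 below. *Tyrobp*, an adaptor through which CSF1R can reach SYK, had the highest estimate, with 307 to 494 CPM in control and 483 to 631 CPM in CSF1 OE mice (log2 fold change 0.44, unadjusted p = 0.0216, adjusted p = 0.221 by edgeR). *Fyn*, a SRC-family kinase named because it was the only other gene of the list with an unadjusted p under 0.05, was at 80.7 to 111 CPM and 99.6 to 135 CPM (log2 fold change 0.33, adjusted p = 0.231 by edgeR). These were 2 of 24 genes, where 10.1% of all genes were higher at that p.

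A list of 10 JAK-STAT genes held JAKs and STATs, through which the GM-CSF and G-CSF receptors signal, and feedback inhibitors and STAT targets. Of these 10 genes 0 were called and 0 had an unadjusted p under 0.05. The genotypes did not overlap in 2 of them, beside 10.3% of all genes. *Cish*, a feedback inhibitor that STAT5 switches on, was at 5.39 to 8.22 CPM in control and 2.30 to 5.38 CPM in CSF1 OE mice (log2 fold change -0.57, unadjusted p = 0.0749). *Stat5a*, named after its values were seen, was at 12.6 to 20.1 CPM and 20.8 to 26.8 CPM (log2 fold change 0.37, unadjusted p = 0.0531). *Pim1*, another STAT5 target, had the highest estimate at 0.41 (SE 0.20, unadjusted p = 0.0764).

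CSF1R and the cell surface form of CSF1 can be cut from the membrane by ADAM17, which RHBDF2 (iRhom2) carries to the surface and TIMP3 inhibits. *Adam17* was at 227 to 312 CPM in control and 262 to 354 CPM in CSF1 OE mice. *Rhbdf2* was at 36.1, 34.0, 26.3 and 34.6 CPM in control mice and at 65.2, 44.3, 56.1 and 37.9 CPM in CSF1 OE mice. Every CSF1 OE mouse was above every control mouse for *Rhbdf2*, as in 6.85% of all genes tested. Its log2 fold change was 0.64 ± 0.18 (SE, unadjusted p = 0.00582, adjusted p = 0.139 by edgeR). *Timp3* had a log2 fold change of -0.49 (adjusted p = 0.472 by edgeR), and 0 of the 3 genes were called.

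Of 7 transcription factor genes that act on the *Csf1r* gene, 0 were called and 0 had an unadjusted p under 0.05. *Spi1*, which encodes PU.1, the factor that macrophages require to switch on *Csf1r*, was at 146 to 232 CPM in control and 200.1 to 275 CPM in CSF1 OE mice (log2 fold change 0.22, adjusted p = 0.518 by edgeR). *Ets2* had the lowest estimate, -0.27 (adjusted p = 0.504), and the estimates of the other 5 lay between these.

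The remaining marker lists cover microglia, border macrophages, monocytes, endothelium, oligodendrocytes and oligodendrocyte precursors. Of 10 microglia markers 0 were called, with a median log2 fold change of 0.03. *Aif1*, which encodes IBA1, was at 102 to 168 CPM in control and 176 to 224 CPM in CSF1 OE mice (log2 fold change 0.60, adjusted p = 0.0971), and *Fcrls* had the lowest estimate, -0.63 (adjusted p = 0.168 by edgeR). Of 7 border macrophage markers 0 were called. All 7 had the lower estimate in CSF1 OE mice, where 44.8% of all genes had a higher one. Of the 7 markers, 5 had an unadjusted p under 0.05 by edgeR, where 6.44% of all genes were lower at that p. *Cd163*, a scavenger receptor of these cells, was at 106 to 337 CPM in control and 89.2 to 124 CPM in CSF1 OE mice (log2 fold change -1.11, adjusted p = 0.132 by edgeR). Border macrophages also carry CSF1R, and their markers summed to 1557 to 2477 CPM in control and 1252 to 1872 CPM in CSF1 OE mice.

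Of the 5 monocyte markers measured 0 were called, 1 had a higher and 4 a lower estimate in CSF1 OE mice, and their median log2 fold change was -0.25. *Plac8* was at 4.38 to 12.5 CPM in control and 13.8 to 37.7 CPM in CSF1 OE mice (log2 fold change 1.70, adjusted p = 0.0948), while *Ly6c2* had the lowest estimate at -0.84 (adjusted p = 0.330 by edgeR), and the summed level of the list, *Plac8* included, was 38.4 to 53.8 CPM in control and 40.8 to 78.3 CPM in CSF1 OE mice. All 6 endothelial markers had the lower estimate in CSF1 OE mice, where 44.8% of all genes had a higher one. *Ly6c1* had a log2 fold change of -0.86 (adjusted p = 0.142 by edgeR). The 6 markers summed to 514 to 823 CPM in control and 256 to 592 CPM in CSF1 OE mice. Of the oligodendrocyte markers *Mbp* had the highest estimate at 0.19, and of the precursor markers *Gpr17* had the lowest at -0.34. The part of any of these cells in the levels of the 7 genes was not tested.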

How the data were processed

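RNA was measured in CD11b+ cells of 8 mice, 4 control and 4 CSF1 OE, with 1 library each. Per the labels and the submitters' processing notes, reads were handled with bcl2fastq 1.8.4, Bowtie 1.0.0 and RSEM 1.2.7 and build mm10. The authors deposited RSEM expected counts per gene symbol, not normalized, of which 20.8% to 26.5% per library were not whole, and a second table that holds the authors' normalized signal, the same counts divided by 1 size factor per mouse. The annotation and strand setting are not given in the sources used here. Libraries were assigned to genotypes by the genotype codes in their labels, and 0 columns were unmapped.

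Expected counts were rounded and tested in R 4.3.3 with edgeR 4.0.16 (filterByExpr, TMM, glmQLFit, glmQLFTest, no covariates) on all 8 libraries. The study's own test, EBSeq, was not run here. Log2 CPM used a prior count of 2. The fit was tested on simulated data. Alternatives were DESeq2 1.42.0, other scalings and filters, limma 3.58.1 on log2 of the normalized values plus 1, a term for mice 1931 to 1936 against the others, an astrocyte covariate, *Csf2rb* and *Csf2rb2* summed, unrounded counts, and each mouse left out.

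Named are all 7 genes, every tested gene of the lists of other ligands and receptors, the largest rise and fall of each other list, and the 5 genes most like *Csf1*, *Csf1r* and *Csf2rb* by Pearson correlation of log2 CPM, with others said to be chosen later. Some genes that this rule names are not reported here. The 7 genes and the lists were chosen with earlier results of these data known. *Ly6g* and *Chil3* were not analysed here, nor were EGFP and tTA. Totals set the precision of low genes: 3 counts were 0.177 to 0.266 CPM, which covers counting error only. Each mouse is a separate animal, so p-values measure the spread between mice.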

Additional observations from a re-analysis of the deposited data

Results flagged for a closer look

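*Csf2ra* was at 58.1 CPM in CSF1 OE mouse 1931, while the other 3 CSF1 OE mice lay between 34.5 and 36.7 CPM, so that the gap took up 0.906 of the range of the genotype. *Pim1* was at 33.5 CPM in control mouse 1827, while the other 3 control mice lay between 39.9 and 40.5 CPM, a gap of 0.922 of the range. These were 2 of 110 gene and genotype groups examined (1.82%), where chance flags about 1 group in 20.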

How the results depend on the processing

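None of the 7 genes was called under any alternative that was run. Their lowest adjusted p under any alternative (edgeR, DESeq2 or limma) was 0.517 for *Csf1*, 0.0897 for *Il34* and 0.153 for *Csf1r*. It was 0.137 for *Csf2ra*, 0.0577 for *Csf2rb*, 0.248 for *Csf2rb2* and 0.068 for *Csf3r*. The log2 fold changes of the 7 genes under all alternatives ran from -0.23 to 0.41 for *Csf1*, -0.72 to 0.04 for *Il34*, -0.08 to 0.35 for *Csf1r*, 0.35 to 0.68 for *Csf2ra*, 0.18 to 0.35 for *Csf2rb*, -0.01 to 0.21 for *Csf2rb2* and 0.03 to 0.53 for *Csf3r*. Directions changed with the term for sets of animal numbers for *Csf1* (-0.23), with the astrocyte covariate for *Il34* (0.008) and *Csf1r* (-0.047), and with single mice left out, where the ranges were -0.033 to 0.405 for *Csf1*, -0.443 to 0.036 for *Il34*, -0.082 to 0.152 for *Csf1r* and -0.007 to 0.172 for *Csf2rb2*. The number of the 7 with an unadjusted p under 0.05 was 2, and 5 with the term for sets of animal numbers, 1 with the astrocyte covariate, 1 with *Csf2rb* and *Csf2rb2* summed, and 0 to 2 with single mice left out.

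Of all genes, 59 were called, against 430 with DESeq2 (3.17%), 19 with upper-quartile factors, 9 without normalization factors, 105 with limma, 1274 with the term for sets of animal numbers (9.5%), 152 with the astrocyte covariate, and 3 to 164 with single mice left out (3 without 1872 or 1874, 164 without 1827, all control mice). The cause was not tested.

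Calls in the lists, 0 in the text, became 1 of the other receptors (*Sdc1*), 1 of the shedding genes (*Rhbdf2*), 2 microglia, 1 monocyte, 1 border macrophage and 1 endothelial marker with DESeq2. With the term for sets of animal numbers they became 1 other ligand (*Kitl*), 1 CSF1R signalling gene (*Tyrobp*) and 2 of the JAK-STAT list. With that term they also became 1 shedding gene, 1 microglia, 3 astrocyte, 1 neuron, 5 endothelial and 4 oligodendrocyte markers. With the astrocyte covariate they became 1 of the other receptors (*Pdgfra*, also the 1 precursor marker), 1 astrocyte and 1 endothelial marker. With single mice left out they were 0 to 1 microglia and 0 to 2 border macrophage markers.

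Further directions changed with the astrocyte covariate (*Kit* 0.26, *Pdgfrb* 0.11, *S100a8* -0.56), with limma (*Ptprz1* -0.056, *S100a8* -0.38), with the term for sets of animal numbers (*Pdgfra* -0.35, *Ptprz1* -0.59, *Gad1* -0.18, *Mbp* -0.61), and with single mice left out, over ranges of -0.23 to 0.34 for *Kit*, -0.062 to 0.385 for *Flt3*, -0.10 to 0.68 for *Pdgfra*, -0.260 to 0.069 for *Pdgfrb*, -0.43 to 0.41 for *Ptprz1*, -0.03 to 0.48 for *Gad1*, -1.04 to 0.71 for *S100a8* and -0.31 to 0.48 for *Mbp*.

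No paired analysis was possible because the genotypes share no animal number. *Csf2*, *Csf3*, *Il3*, *Il5* and *Il5ra*, with at most 4 counts in a library, were not tested. *Il34*, with 21 to 99 counts in a library, carries more counting error than the other 6 genes. The set of mice 1931 to 1936 overlaps with genotype, and its term compares few mice.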
